A study of Mus musculus with 6 samples.

Results

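Beige adipocytes, the heat-producing cells that cold exposure brings out in inguinal white adipose tissue (iWAT), are driven by sympathetic nerve fibers that run into the depot. Fat cells and the cells around them release factors that help these fibers survive and branch, and others that repel growing axons. The 9 genes described here cover both kinds: the neurotrophic signals S100b, Bdnf, Gdnf and Nrtn, the neurotrophin receptor Ngfr, the calsyntenin gene Clstn3, and the axon guidance genes Sema3a, Nrp1 and Slit3. They were chosen by name, with earlier results of these data known, and all 9 were among the 16538 genes listed for these samples.

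RNA-Seq, which counts sequencing reads per gene, was performed on iWAT from 3 control and 3 AKO samples after cold acclimation at 8°C, for 10 days according to the labels, with the RNA of 2 mice of the same genotype combined in each sample. The results text of the paper gives a somewhat longer cold exposure than the labels and describes the cold-acclimated mice as chow-fed. In AKO mice the floxed gene of Nrg4, a secreted neuregulin that signals through ERBB4, was deleted by Adiponectin-Cre, which is active in adipocytes, so that Nrg4 of other cells was not targeted. Controls are labelled wt and described as fl/fl littermates, so both groups carried floxed alleles by that description. Strain, sex and age of these mice are not given in the sources used here. Samples with separate numbers are taken as separate pools, and the p-values measure only the spread between these pools. All values are read counts that the authors divided by a size factor per sample, called normalized counts below, and 17570335 to 18373707 reads were counted per sample.

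Nrg4, the targeted gene, lies on chromosome 9 of GRCm38 from 55220222 to 55326844. Its reads were counted over the whole gene and not over the deleted part, so they check the labels only weakly. Normalized counts of Nrg4 were 3128, 3102 and 3092 for control iWAT, against 2577, 2627 and 2691 for AKO iWAT. The groups did not overlap, and the mean over the whole gene differed by -15.3% (log2 fold change -0.24, limma adjusted p = 0.298). DESeq2 called the difference (adjusted p = 0.0459). Of the exonic bases of Nrg4, 8.97% are shared with Fbxo22 and Gm15625 on the opposite strand, and whether counting used strand is not given in the sources used here. Among the markers of the tissue, Fabp4 and Cidec, a fatty acid carrier and a lipid droplet protein, had the highest levels of 8 adipocyte genes, whose summed level was 349710 to 374718 normalized counts in control and 315029 to 345044 in AKO iWAT. These ranges did not overlap, and 7 of the 8 genes were lower (median log2 fold change -0.09), with none called by limma or DESeq2 and none with a p under 0.05 before adjustment with limma. The summed level of 20 skeletal muscle markers, led by Acta1 and Myh4, varied from 742 to 31474 normalized counts among the control samples and from 23327 to 133736 among the AKO samples. Summed levels of the 10 lymphocyte and lymph node markers, led by Cd4 (145 to 1630 normalized counts), and of the 7 mammary epithelial markers, led by Csn3 and Krt18 (26.9 to 1854), overlapped between groups. All 7 mammary markers were higher in AKO (median log2 fold change 1.39), none with a limma p under 0.05 before adjustment. The lymphocyte sum was 1199 in control replicate 1 and 1630 in AKO replicate 2, against 145 to 218 in the other samples. The median log2 fold change was -0.06 over 10 endothelial markers, led by Cdh5 and Pecam1, and -0.04 over 8 mural cell markers, led by Cspg4 and Notch3. It was 0.36 over 10 macrophage markers, led by Lyz2 and C1qa, and 0.27 over 10 adipocyte progenitor markers, led by Col1a1 and Dcn. In the macrophage and in the progenitor list, 9 of 10 genes were higher in AKO. Each held 4 genes with a limma p under 0.05 before adjustment, all higher, against 9.1% of all genes. The endothelial and mural lists held none. No gene of these 4 lists was called by limma, and 1 progenitor marker was called by DESeq2. The part of these differences in the results below was not tested. In bulk tissue, fewer cells of a type and less RNA per cell cannot be told apart.

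S100b was the member that differed most. It encodes a small calcium-binding protein that Schwann cells express and that thermogenic adipocytes secrete, where it acts as a neurotrophic signal for sympathetic fibers. S100b lies on the plus strand of chromosome 10 of GRCm38 from 76253853 to 76261159 and shares no exonic bases with another annotated gene. In control iWAT S100b reached 217, 256 and 204 normalized counts, and in AKO iWAT 138, 99.6 and 125. The highest AKO sample was thus well below the lowest control sample. Averaged by group, S100b was at 226 ± 26.9 in control and at 121 ± 19.7 in AKO iWAT (SD, n = 3 each), a difference of -46.4% (2-sided exact permutation test, p = 0.1, the smallest p this design allows). As log2(normalized count + 1), a scale that understates differences of low genes, this was -0.90 (standard error 0.15, 95% confidence interval -1.25 to -0.55). Its limma adjusted p of 0.205 missed the threshold of 0.05 over the 13855 genes tested. By its p before adjustment S100b ranked 23 among these genes. DESeq2 on the whole reads, the tool the study used, called S100b lower in AKO iWAT (-0.90 on the log2 scale, standard error 0.20, adjusted p = 0.00159). Across the alternative settings its adjusted p ran from that value to 0.545, and DESeq2 was the only setting under which it was called.

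Clstn3, the other member that DESeq2 called, is a cadherin-type membrane protein gene. In adipocytes a short product of this gene, CLSTN3B, is known to reside in the endoplasmic reticulum and to promote secretion of S100b. Clstn3 lies on the minus strand of chromosome 6 from 124430759 to 124464794. Control iWAT gave 2150, 2968 and 2316 normalized counts of Clstn3, and AKO iWAT gave 1775, 1683 and 1774. The AKO samples lay close together and below all controls, of which replicate 2 was the highest. On average Clstn3 went from 2478 ± 433 to 1744 ± 52.6 (SD, n = 3 each), a difference of -29.6% (exact permutation test, p = 0.1). With limma this was -0.49 on the log2 scale (standard error 0.11, 95% confidence interval -0.76 to -0.23, adjusted p = 0.315), and DESeq2 called it lower (-0.51, standard error 0.12, adjusted p = 0.00472). The adjusted p ran from there to 0.709 across the settings. Counts were summed over the gene, so its transcripts could not be told apart. GENCODE M21 lists 7 transcripts, of which Clstn3-203 starts with an exon of its own of 96 bases (chr6:124433408-124433503) between exons 16 and 17 of the 18 exons of the full-length transcript, and shares 632 of its 728 bases with it.

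The sequences before the annotated starts of these genes are shown because they are the only members that DESeq2 called, and both were lower in AKO. They are from RefSeq (GRCm38.p6), on the strand of the gene, with no base downstream of the RefSeq or the GENCODE start. The S100b stretch is chr10:76253586-76253835, plus strand, and the Clstn3 stretch is chr6:124464795-124465034, minus strand, which belongs to the full-length start, the more upstream of its 2 RefSeq windows. Capitals mark matches, on either strand, to any of 5 motifs: CCAAT (the CCAAT box), GGGCGG (the GC box), AGGTCA (the core site of nuclear receptors), TATAAA (the TATA box) and TGACGTCA (the cAMP response element).
S100b: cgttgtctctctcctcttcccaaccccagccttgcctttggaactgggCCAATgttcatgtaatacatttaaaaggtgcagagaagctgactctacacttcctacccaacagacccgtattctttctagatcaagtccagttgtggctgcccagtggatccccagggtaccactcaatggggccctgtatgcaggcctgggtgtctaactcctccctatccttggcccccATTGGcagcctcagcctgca
Clstn3: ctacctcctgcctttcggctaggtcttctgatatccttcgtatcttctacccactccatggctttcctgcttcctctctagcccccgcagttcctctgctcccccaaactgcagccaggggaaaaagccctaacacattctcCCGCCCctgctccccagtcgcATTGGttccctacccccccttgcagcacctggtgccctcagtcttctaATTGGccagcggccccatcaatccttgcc

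CCAAT was added to the motifs after these sequences were seen. Both stretches held 2 CCAAT boxes, and in each the one nearest the start read ATTGG on the strand shown. It began 20 bases before the end of the S100b stretch and 29 bases before the end of the Clstn3 stretch. Of the 32851 RefSeq windows of 250 bases before a start, 33.8% held at least 1 CCAAT box, and the share with 2 was not counted. Clstn3 also had 1 GC box, which 32.7% of the windows held. No match to AGGTCA (14.0% of the windows), TATAAA (12.4%) or TGACGTCA (1.55%) was in either stretch, and no base belonged to more than 1 match. The GC content was 53.6% for S100b and 58.3% for Clstn3, against a median of 52.4% over all windows. A match describes the letters and does not show a binding site.

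**Figure D1:**
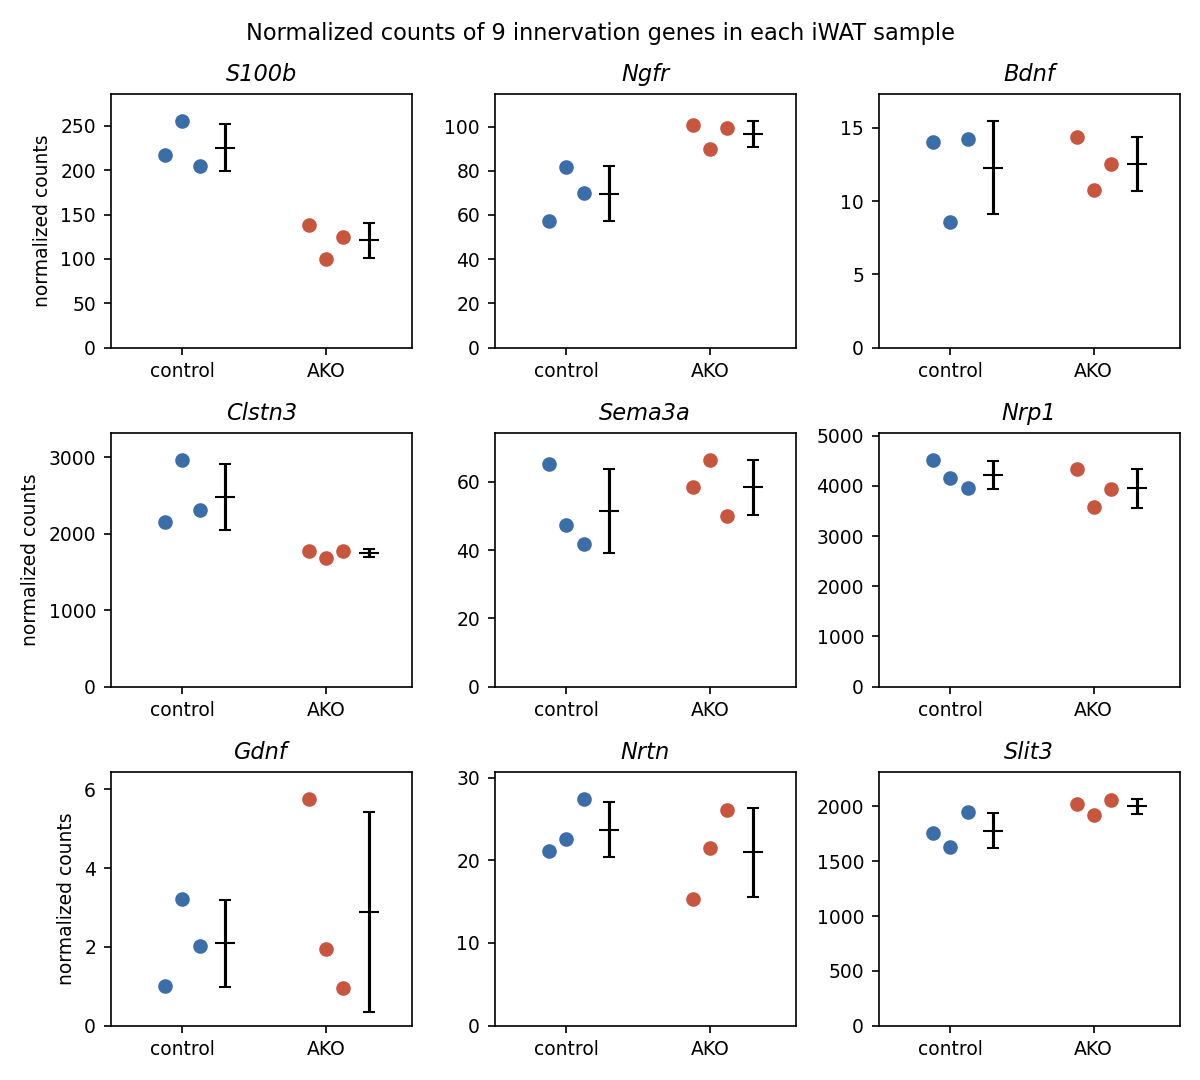
Normalized counts (y axis, from 0) of the 9 genes in each of the 3 control (blue) and 3 AKO (red) samples, with the mean and SD of each group in black. S100b (control 204 to 256, AKO 99.6 to 138) and Clstn3 were lower and Ngfr was higher in every AKO sample, and the groups overlapped for the other 6.

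Over the 9 members, 8 had a mean of at least 10 normalized counts and were tested, and Gdnf was not. None of the 8 passed the adjusted threshold with limma, against 2 of 13855 genes (0.0144%), and none passed with the quasi-likelihood test of edgeR (also 0.0144% of genes). Before adjustment, 3 of the 8 had a p under 0.05 with limma, namely S100b, Clstn3 and Ngfr, against 9.1% of all genes, and 3 did with edgeR. The groups did not overlap for the same 3 members, against 14.5% of all genes. DESeq2 called 2 of the 8, both lower, against 1.09% of all genes called and 0.837% called lower. Of the 8, 4 were lower and 4 higher in AKO with a median log2 fold change of -0.02, close to the 0.01 over all genes, so the members had no common direction.

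**Figure D2:**
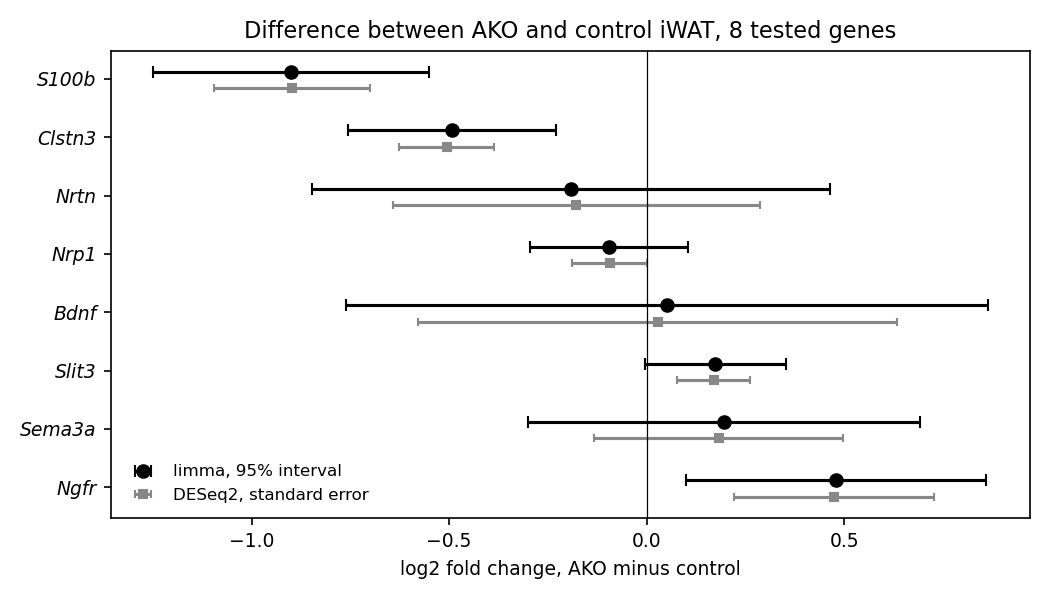
Log2 fold change of AKO minus control (x axis) for the 8 tested genes (y axis), from limma with its 95% confidence interval (black) and from DESeq2 with its standard error (gray). The limma intervals of S100b and Clstn3 lay below 0, that of Ngfr lay above 0, and those of the other 5 held 0.

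Ngfr, the p75 receptor that binds all neurotrophins and marks Schwann cells and sympathetic neurons, had the opposite sign. It lies on chromosome 11 from 95568818 to 95587735. Its normalized counts were 57.2, 81.7 and 70.1 for control and 101, 89.8 and 99.3 for AKO iWAT. No AKO value reached down to the control range, and the averages of 69.7 ± 12.3 and 96.7 ± 5.97 (SD, n = 3 each) differed by 38.7% (exact permutation test, p = 0.1). The AKO spread is below the Poisson counting error at that mean, 9.67, so this SD understates the error. For Ngfr the log2 fold change was 0.48 (standard error 0.16, 95% confidence interval 0.10 to 0.86). Its adjusted p was 0.492 by limma and 0.749 by DESeq2. Ngfr was called under no setting.

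Bdnf, a neurotrophin that signals through NTRK2, was low. Its gene is on chromosome 2 from 109674700 to 109727007, and 14.4% of its exonic bases are shared with Gm45346 on the opposite strand. With 14.0, 8.60 and 14.2 normalized counts in control and 14.4, 10.7 and 12.5 in AKO, the groups overlapped (log2 fold change 0.05, standard error 0.35, adjusted p = 0.984 from limma). The 95% confidence interval of the difference, -0.76 to 0.86, shows how little this depth resolves for Bdnf.

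The GDNF family ligands were low as well. Gdnf, the ligand of GFRA1 and RET, lies on chromosome 15 from 7810846 to 7837575 and yielded 1, 3 and 2 reads from control and 6, 2 and 1 from AKO iWAT. The ratio of its summed reads, AKO over control after scaling, was 1.41 with an exact 95% interval for counting error of 0.447 to 4.803, so no difference was detectable at this depth. Nrtn, which encodes neurturin, the ligand of GFRA2, lies on chromosome 17 from 56751325 to 56757530. Nrtn was found at 21.1, 22.6 and 27.4 normalized counts in control and at 15.4, 21.5 and 26.0 in AKO iWAT. These ranges overlapped for Nrtn (log2 fold change -0.19, standard error 0.28, 95% confidence interval -0.85 to 0.46, adjusted p = 0.898 from limma).

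Of the axon guidance genes, Sema3a encodes a secreted semaphorin that repels sympathetic axons, and it was low. It is on chromosome 5 from 13125414 to 13602565. Control iWAT held 65.2, 47.3 and 41.7 normalized counts of Sema3a, and AKO iWAT held 58.6, 66.4 and 50.1. The log2 fold change of Sema3a was 0.20 (standard error 0.22, 95% confidence interval -0.30 to 0.69, adjusted p = 0.842 from limma), with overlapping groups. Nrp1, the receptor through which SEMA3A acts together with class A plexins and which endothelial cells use for VEGF, was abundant. Its gene spans 128358604 to 128503363 on chromosome 8. Control iWAT contained 4522, 4162 and 3960 normalized counts of Nrp1, and AKO iWAT contained 4339, 3579 and 3931. For Nrp1 limma gave -0.10 on the log2 scale (standard error 0.09, 95% confidence interval -0.30 to 0.10, adjusted p = 0.801), and the groups overlapped.

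Slit3 encodes a secreted ligand of ROBO receptors, and fragments of it are known to promote sympathetic innervation and thermogenesis in fat. It lies on chromosome 11 from 35121224 to 35708507. Slit3 stood at 1755, 1628 and 1946 normalized counts in control and at 2020, 1920 and 2056 in AKO iWAT. The lowest AKO sample was just below the highest control sample. The averages, 1776 ± 160 and 1999 ± 70.5 (SD, n = 3 each), differed by 12.5% (exact permutation test, p = 0.2). For Slit3 limma gave a log2 fold change of 0.17 (standard error 0.08, 95% confidence interval -0.01 to 0.35, adjusted p = 0.557), and the DESeq2 adjusted p was 0.769.

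Levels can be compared between genes only per length, so normalized counts were divided by the kilobases of merged exon in GENCODE M21. Per kb and as the mean of the 6 samples, Clstn3 was highest at 425, followed by Nrp1 at 417, Slit3 at 311, S100b at 117, Ngfr at 24.1, Nrtn at 21.8, Sema3a at 3.96, Bdnf at 1.999 and Gdnf at 0.678. The span from Clstn3 to Gdnf was 627-fold. In all, 3 pairs of neighbors in this order overlapped in their ranges over samples, namely Clstn3 and Nrp1, Ngfr and Nrtn, and Bdnf and Gdnf. By group, Clstn3 and Nrp1 averaged 499 and 431 per kb in control and 351 and 404 in AKO, so their order differed. The order of Ngfr and Nrtn differed as well, with 20.2 and 23.2 in control and 28.0 and 20.5 in AKO. Bdnf and Gdnf were thus at the bottom of the order, and S100b was the most abundant of the neurotrophic signals in both groups, with 152 ± 18.2 per kb in control and 81.6 ± 13.3 per kb in AKO (SD, n = 3 each). Merged exons count every annotated form at once, 11 transcripts for Bdnf and 9 for Sema3a against 1 for S100b, which lowers the per kb level of genes with many forms.

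**Figure D3:**
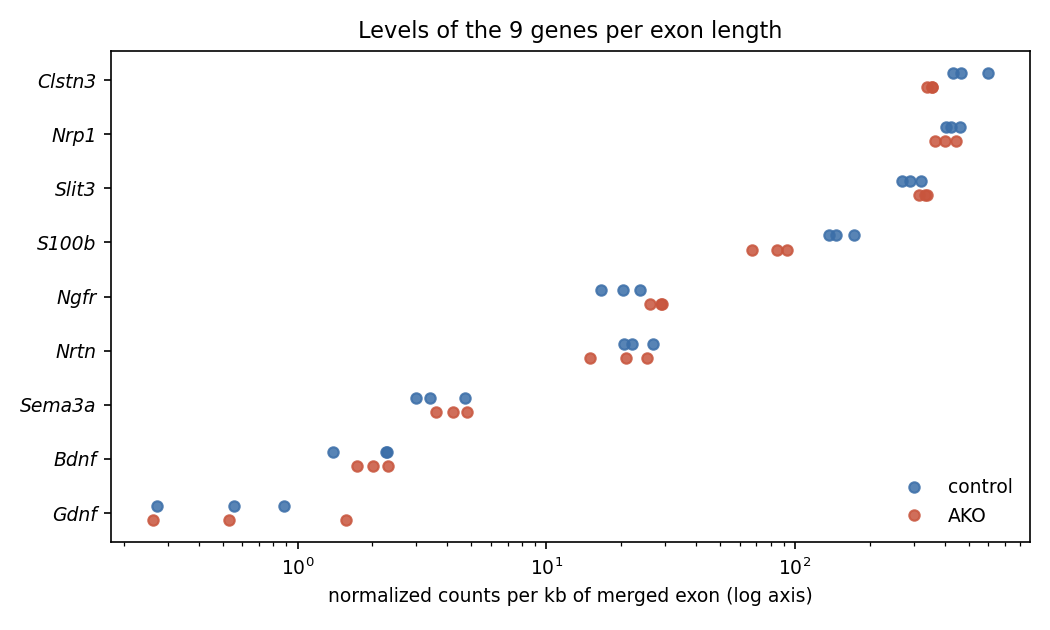
Normalized counts per kb of merged exon (x axis, log scale) of the 9 genes (y axis) in the 3 control (blue) and 3 AKO (red) samples. Clstn3, Nrp1 and Slit3 were above 268 per kb in every sample, and Gdnf was at most 1.57.

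S100b and Ngfr are both Schwann cell genes, and the other genes of these cells are given beside them. Of 20 tested Schwann cell markers, 14 were higher and 6 lower in AKO, with a median log2 fold change of 0.07, and S100b was the only one of the 20 that DESeq2 called. Without S100b and Ngfr, 12 of the 18 others had log2 fold changes between -0.2 and 0.2. Pmp22, a myelin gene that fibroblasts also express, had the highest level and a log2 fold change of 0.20 (adjusted p = 0.527 from limma). The markers farthest from 0 beside S100b and Ngfr, named like the next ones after their values were seen, were Pou3f1 at 0.75 (adjusted p = 0.550 from limma, groups not overlapping), Foxd3 at -0.36 and Pmp2 at 0.32. Nearer to 0 were Mbp, a myelin protein gene, and Sox10, the transcription factor that defines the lineage. Mbp was at 2989 ± 42.9 normalized counts in control and at 3079 ± 263 in AKO (SD, n = 3 each; log2 fold change 0.04, 95% confidence interval -0.13 to 0.21, adjusted p = 0.921 from limma). Sox10 was at 256 ± 35.4 and 252 ± 55.0 (SD, n = 3 each; log2 fold change -0.04, 95% confidence interval -0.44 to 0.37, adjusted p = 0.974 from limma). The summed level of the listed markers, S100b and Ngfr included, was 18881 to 20453 normalized counts in control and 18693 to 22377 in AKO iWAT, so the groups overlapped. The part of Schwann cell content in the values of S100b and Ngfr was not tested further.

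**Figure D4:**
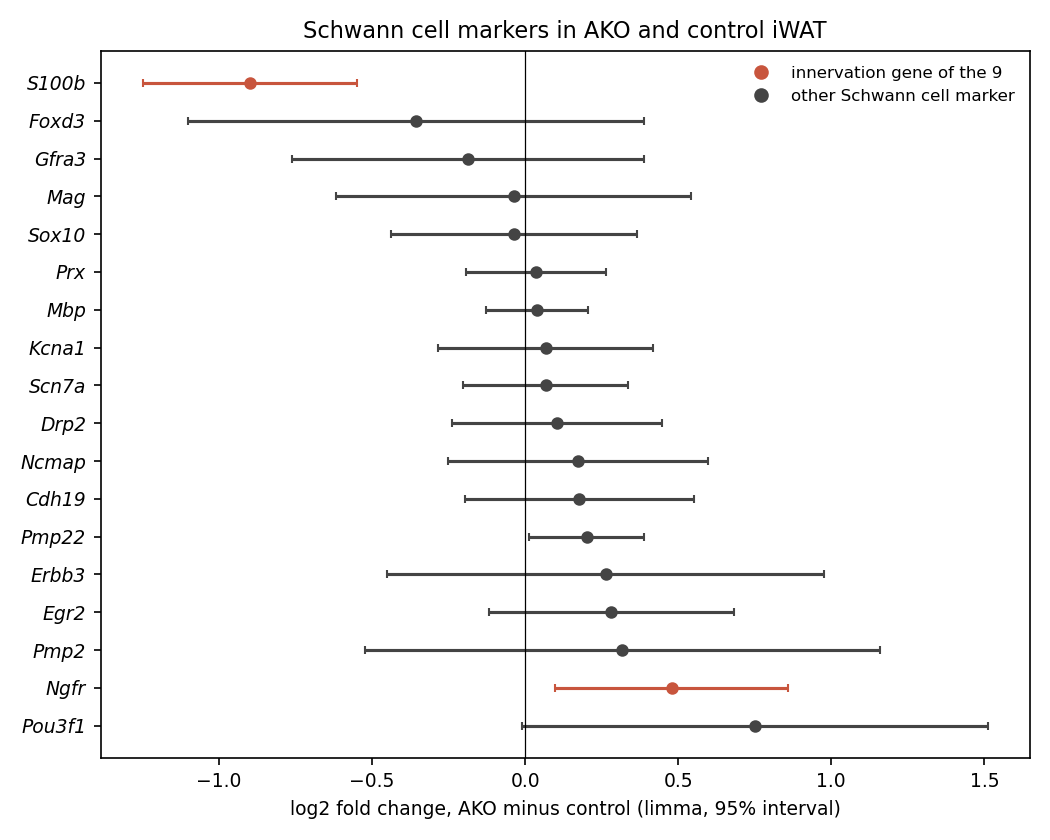
Log2 fold change of AKO minus control (x axis, limma, with 95% confidence intervals) for 18 of the 20 tested Schwann cell markers (y axis), with S100b and Ngfr in red. S100b stood lowest at -0.90, Ngfr stood at 0.48, and the other markers shown lay between -0.36 (Foxd3) and 0.75 (Pou3f1).

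Transcripts of the fibers themselves were scarce. As background, the cell bodies of sympathetic neurons lie outside the depot. Of 16 neuron and axon markers listed, 11 had a mean under 10 normalized counts, and Th, Dbh and Npy were not analysed here. The 5 tested genes had a median log2 fold change of 0.08, and none had a p under 0.05 before adjustment with limma. Uchl1, a neuronal deubiquitinase, was at 79.7 ± 15.0 normalized counts in control and at 82.1 ± 22.2 in AKO (SD, n = 3 each), and Stmn2, an axonal tubulin-binding protein gene, had 68.1 ± 0.796 and 58.7 ± 14.5 (SD, n = 3 each). The summed level of the 16 markers was 239 to 309 normalized counts in control and 274 to 316 in AKO.

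The beige and thermogenic markers differed in the same direction as S100b and Clstn3. All 10 beige and thermogenic markers were lower in AKO, with a median log2 fold change of -0.95, and DESeq2 called 8 of them, while limma called 1, the fatty acid elongase gene Elovl3, named after its values were seen (adjusted p = 0.0350 from limma). Leaving out 1 sample at a time, Elovl3 passed only without control replicate 2 (adjusted p = 0.0305) and was at 0.0929 to 0.117 without any other sample. The most abundant, Ucp1, the uncoupling protein of thermogenic fat, and Adrb3, the adipocyte adrenergic receptor through which sympathetic fibers act, had log2 fold changes of -1.75 and -0.28. The summed level of the 10 markers was 40960 to 58174 normalized counts in control and 20731 to 25126 in AKO iWAT, none of the 10 was at 0, and their part in the values of S100b and Clstn3 was not tested. Among the 13854 other tested genes, the one whose mean-centered log2 profile over the 6 samples was nearest to that of S100b was Chrna2, a nicotinic acetylcholine receptor subunit gene of beige fat, with a root mean square difference of 0.0801 on the log2 scale. Chrna2 was at 294 ± 36.7 normalized counts in control and at 158 ± 26.9 in AKO (SD, n = 3 each). The next nearest genes were Ccdc106 (0.0896) and mt-Rnr2, the large ribosomal RNA of mitochondria (0.0984). This likeness includes the difference between groups and rests on 6 samples.

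The other genes of each pathway are described by the counts in lists, none of which held a gene called by limma or edgeR. Of 11 tested neurotrophins and their receptors, 6 were higher and 5 lower in AKO, with a median log2 fold change of 0.02, Ngfr alone had a p under 0.05 before adjustment with limma, and DESeq2 called none. Sort1, the sorting receptor sortilin, was the most abundant at -0.06, and Sorcs2, a related receptor gene, had the highest value beside Ngfr, 0.29.

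Of 8 tested genes of the GDNF family and its receptors, 4 were higher and 4 lower, with a median of -0.06. Before adjustment 2 had a p under 0.05 with limma, Gfra2 and Gas1, and DESeq2 called none. Gfra2, the coreceptor for neurturin, was above all controls in all AKO samples, with 159 ± 22.9 and 207 ± 4.03 normalized counts (SD, n = 3 each, log2 fold change 0.39, adjusted p = 0.450 from limma). Gas1, a GDNF receptor-like gene and the most abundant of the list, had 0.25, and Gfra4 had -0.20. Pspn, the fourth ligand gene of the family, named after its values were seen, had 5, 5 and 4 reads in control and 1, 2 and 1 in AKO, too few to be tested.

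The list of calsyntenins and S100b partners held 12 tested genes, 8 lower and 4 higher, with a median of -0.17 that S100b and Clstn3 themselves lowered (-0.11 without them). Before adjustment 4 had a p under 0.05 with limma, and DESeq2 called 2, S100b and Clstn3. The calsyntenins differed in sign. Clstn2 was above all controls in all AKO samples (122 ± 9.52 and 166 ± 22.8 normalized counts, SD, n = 3 each, log2 fold change 0.44, adjusted p = 0.450 from limma), opposite in sign to Clstn3, and Clstn1, named after its values were seen, had 0.01. Ager, the gene of the S100B receptor RAGE, had -0.29 (adjusted p = 0.814 from limma). Aplp2, an amyloid precursor-like gene, was the most abundant at -0.10.

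Of 17 tested semaphorins, neuropilins and plexins, 11 were higher and 6 lower, with a median of 0.05, and 3 had groups that did not overlap. Before adjustment 3 had a p under 0.05 with limma, all higher, and DESeq2 called none. Dpysl3, a cytosolic mediator of semaphorin signals, had the highest log2 fold change at 0.30 (adjusted p = 0.498 from limma), L1cam, an axonal adhesion molecule gene, the lowest among non-members at -0.11, and Plxnd1, an endothelial plexin gene, 0.00. Of 7 tested Slit and Robo genes, 6 were higher and 1 lower, with a median of 0.10. The lower one was Robo4, an endothelial receptor and the most abundant non-member (-0.18, adjusted p = 0.583 from limma), and Slit2, another secreted ROBO ligand gene, had 0.36 with 36.0 ± 1.44 normalized counts in control and 46.7 ± 4.10 in AKO (SD, n = 3 each, adjusted p = 0.590 from limma). Of 7 tested netrins and netrin receptors, 5 were higher and 2 lower, with a median of 0.12, from Ntn3 at -0.21 to Unc5c at 0.64, and Unc5a, the most abundant, had 0.12. In the Slit and netrin lists 0 genes had a p under 0.05 before adjustment with limma, and DESeq2 called 0.

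Among 15 tested genes of other fat-derived neurotrophic signals, 8 were higher and 7 lower, with a median of 0.02. Before adjustment 4 had a p under 0.05 with limma, and DESeq2 called 3, Nrg4, Cntfr and Mstn. Cntfr, the receptor subunit for ciliary neurotrophic factor, had the lowest value, -0.53, with 679 ± 49.0 normalized counts in control and 470.5 ± 63.6 in AKO (SD, n = 3 each, adjusted p = 0.278 from limma and 0.0101 from DESeq2). The groups did not overlap for Cntfr, and DESeq2 called it lower, as it did Nrg4. Lgals1, the galectin-1 gene and the most abundant of the list, had 0.02. Mstn, which encodes myostatin, a muscle factor, had the highest value, 3.43 (adjusted p = 0.364 from limma and 0.00102 from DESeq2), with 4.18 ± 3.63 normalized counts in control and 47.8 ± 28.9 in AKO (SD, n = 3 each). The skeletal muscle markers had a median log2 fold change of 3.41 beside it, with 16 of 19 tested genes higher and none called by limma or DESeq2, and their part in the value of Mstn was not tested. Bmp8b, a thermogenic BMP gene of brown fat, named after its values were seen, had 6, 3 and 2 reads in control and 0, 1 and 0 in AKO iWAT, below the filter.

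**Figure D5:**
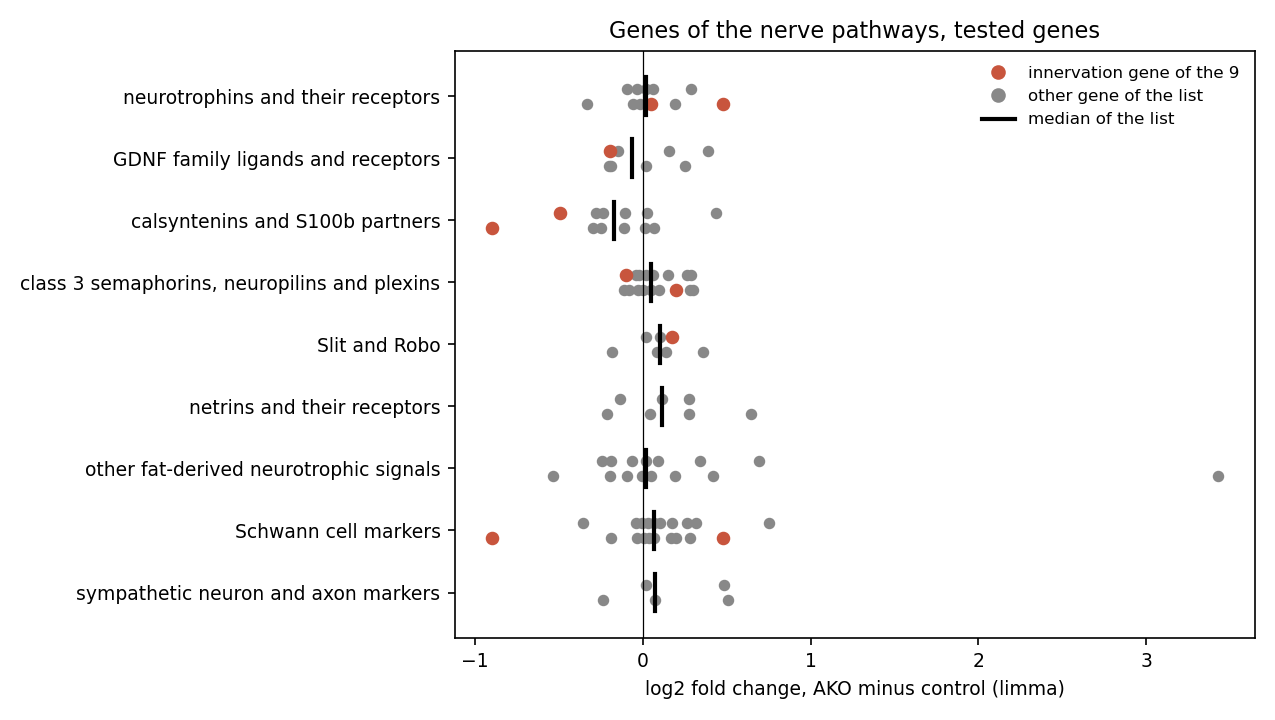
Log2 fold change of AKO minus control (x axis, limma) of each tested gene (points) in 7 pathway lists and 2 marker lists (y axis), with the members in red and the median of each list as a black bar. The medians lay between -0.17 (calsyntenins and S100b partners) and 0.12 (netrins and their receptors), and the point at 3.43 is Mstn.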

How the data were processed

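The data are RNA-Seq of iWAT from control and AKO mice. Reads were aligned with STAR to GRCm38.p6 and counted per gene with featureCounts on GENCODE M25. Strand use and the filter on listed genes are not given in the sources used here. The deposited signal of a gene in a sample is its reads over the size factor that DESeq2 gave the sample. The deposited table also held the authors' log2 fold changes, p-values and adjusted p-values, which were not used.

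The design had been set for counts or normalized values. On log2(value + 1), limma (version 3.58.1, R 4.3.3) was run with a variance trend for 13855 genes whose mean was 10 or more, with Benjamini-Hochberg adjustment over all of them and a threshold of 0.05. Each value was a whole multiple of 1 step per sample (100% of values within 0.01 of a whole number), and these reads went into DESeq2 (version 1.42.0, with the authors' size factors), edgeR (version 4.0.16) and limma-voom. The tests were checked on simulated data. Depth was 17570335 to 18373707 reads. An SD below the Poisson counting error at the mean understates the error. Among others, this held for Bdnf, Slit2 and L1cam in both groups. It also held for Gdnf, Nrtn, Nrg4, Stmn2, Clstn2 and Mbp in control and for Ngfr and Gfra2 in AKO. No pair of samples in a group was alike within sampling noise (chi-square over its degrees of freedom 10.3 to 21.3).

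The members, the 18 gene lists and the tests were chosen with earlier results of these data known. The genes named were the members, Nrg4, the lowest, highest and most abundant non-member of each pathway list, the 2 most abundant genes of each marker list, and the 3 nearest profiles to the member with the smallest p; some of the genes this rule names are not reported here. Coordinates and exon lengths are from GENCODE M21 (GRCm38), and the sequences from RefSeq (GRCm38.p6), in which all 9 members matched. CCAAT was added to the motifs after the sequences were seen. Alternatives were other pseudocounts (0.1 and 10), filters, tests, scaling factors, a replicate block, and each sample left out.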

Additional observations from a re-analysis of the deposited data

How the results depend on the processing

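Of the members, S100b (log2 fold change -0.90, adjusted p = 0.00159) and Clstn3 (-0.51, adjusted p = 0.00472) were called only with DESeq2, which called 2 members where limma called 0, and the cause was not tested. Over all genes limma called 2, DESeq2 151, and limma 6 with at least 10 normalized counts in every sample. Leaving out 1 sample at a time, limma called 0 to 3 genes (3 without control replicate 2) and 0 members, and 3 to 4 members did not overlap, against 21.9% to 28.9% of all genes at the same settings. The median of the members ranged from -0.14 (without control replicate 2) to 0.0559 (without control replicate 1). S100b stayed between -1.001 and -0.77, Clstn3 between -0.59 and -0.36, Ngfr between 0.35 and 0.60, Slit3 between 0.11 and 0.24, Sema3a between 0.06 and 0.38, and Nrp1 between -0.17 and -0.03. The sign changed for Bdnf (-0.17 without control replicate 2 and -0.05 without AKO replicate 1, up to 0.16), for Nrtn (-0.36 to 0.00546, the latter without AKO replicate 1) and for Gdnf (-0.29 to 0.60, not tested). The list medians ranged over the same omissions from 0.01 to 0.05 for neurotrophins, -0.0906 to 0.0190 for the GDNF family, -0.19 to -0.12 for calsyntenins and S100b partners, -0.0215 to 0.127 for semaphorins, 0.06 to 0.17 for Slit and Robo, 0.0467 to 0.168 for netrins and -0.04 to 0.07 for the other signals. Without a filter on low values, the GDNF family median was 0.0202 and the netrin median 0.27.

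The correlations of deviations between control and AKO samples were 0.14, -0.35 and 0.24 for equal replicate numbers. For unequal numbers they ran from -0.50 to 0.34. Deviations were taken from the mean of each group, which ties these values together, so they cannot decide whether the numbers pair the samples. With the replicate number as a block, limma called 2 genes, both higher, and no member. Without the block it called 1 lower and 1 higher. The lower one was Elovl3, whose limma adjusted p was 0.0529 with the block. In this balanced design the block cannot change a log2 fold change. The limma adjusted p of S100b was 0.136 with the block and 0.205 without it, and that of Clstn3 was 0.194 and 0.315. Scaling with TMM factors moved the median log2 fold change of all genes from 0.01 to 0.02. The intervals of Gdnf, Bdnf, Nrtn, Sema3a, Nrp1 and Slit3 allow no difference or one in either direction. Gdnf, Bdnf and Nrtn had at most 27 reads in a sample, which limits their precision.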
